A study of Mus musculus with 14 samples.

Results

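Smooth muscle contractile genes were described in the ovary of wild-type female mice of the strain C57BL/6J: Acta2, Myh11, Tagln, Cnn1, Des, Actg2, Mylk, Lmod1, Smtn and Cald1. The members were a set fixed by name, and each symbol matched 1 row of the deposited table, giving 10 genes of 56748. All 10 passed the filter on low values and were among the 18006 genes tested. The 14 libraries formed 4 groups: controls at day 7 (3 libraries), mice given dextran sulfate sodium (DSS) at day 7 (4), controls at day 89 (3) and DSS at day 89 (4). DSS is a polymer that injures the lining of the colon and is used to model colitis. All mice were wild type, no transgene is named, and neither a DSS dose nor the age of the mice is given in the sources used. By the series text the first time was the end of the model and the second followed a rest.

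Smooth muscle shortens when calcium, through calmodulin, activates myosin light chain kinase (Mylk). The kinase phosphorylates the regulatory light chain of smooth muscle myosin, whose heavy chain is Myh11, and the myosin pulls on filaments of the smooth muscle actins Acta2 and Actg2. Calponin 1 (Cnn1) and caldesmon (Cald1) bind these filaments and restrain the myosin, leiomodin 1 (Lmod1) starts new filaments, and smoothelin (Smtn) and transgelin (Tagln) are further actin-binding proteins. Desmin (Des) is the intermediate filament of muscle. In the ovary such cells lie in the walls of arteries and veins and in the theca externa around follicles, and run through the stroma. Pericytes of small vessels and myofibroblasts share some of these transcripts. Most of these genes are known targets of serum response factor (SRF), which binds a short element, the CArG box, together with the coactivators myocardin and the myocardin-related factors.

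Recovered depth ran from 15256018 to 18505144 reads per library. The share of reads from the mitochondrial genome was 9.96% in replicate 10 and 12.2% in replicate 53 of the day 7 controls, 14.2% in DSS day 7 replicate 75 and 0.479% to 4.04% in the other 11 libraries. The labels name the tissue ovary while their extract protocol speaks of retinas, and of 16 retina markers the highest values were 7.22 FPKM for Rom1 and 1.87 for Abca4. The labels do not state that libraries are from different mice. The p-values therefore reflect only how far these libraries spread, and that spread may be technical.

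The members covered a wide range of levels, given here as FPKM (fragments scaled by gene length and library size). The library size implied by the deposited values was 0.852 of the recovered reads in DSS day 7 replicate 75. It was 0.913 in control day 7 replicate 53, 0.935 in replicate 10 and 0.995 to 1.07 in the other libraries. Acta2 stood highest, at 186 to 363 FPKM with a mean of 274 over the 14 libraries, and lay above every other member in all 14. Actg2 (mean 49.8 FPKM) and Myh11 (44.8) came next and overlapped, Actg2 being the higher in 12 of 14 libraries. Cald1 (24.1), Mylk (24) and Smtn (23.8) were not separated: Cald1 exceeded Mylk in 5 of 14 libraries and Mylk exceeded Smtn in 9 of 14. Cnn1 (14), Des (10.2) and Lmod1 (7.81) followed, with Cnn1 above Des in 13 of 14 libraries and Des above Lmod1 in 10 of 14. Reads per library for these 9 genes ran from 358 for Lmod1 to 14106 for Acta2.

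Tagln, often among the most abundant transcripts of smooth muscle, was the lowest member by far, at 0.333 to 2.77 FPKM (mean 1.09) and 12 to 102 reads per library. Its range did not meet that of Lmod1, the next member. In the GENCODE M21 annotation of GRCm38 Tagln lies at chr9:45929619-45936058 on the minus strand, and 67.9% of its exonic bases are shared with 2 genes of the opposite strand, the antisense gene Gm48529 (62.4% of Tagln's exonic bases) and the 3' end of Pcsk7 (5.43%). Gm48529 itself was listed at 0.215 to 1.52 FPKM and Pcsk7 at 4.12 to 8.43 FPKM. Without a stated use of strand, reads from such genes cannot be told apart, and the sources used do not give how the authors treated them. Had every Tagln read come from the 639 unshared bases, its level would be 1.04 to 8.63 FPKM, which reaches the range of Lmod1 and Des. This is not an upper limit, since how reads touching shared bases were counted is not known. The shared part was 16.3% for Smtn, 6.85% for Mylk and 5.86% for Des, against opposite-strand genes at no more than 0.379 FPKM, and 0% for the other 6 members. The values for Tagln are therefore uncertain in level, and at 12 reads also in precision.

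**Figure D1:**
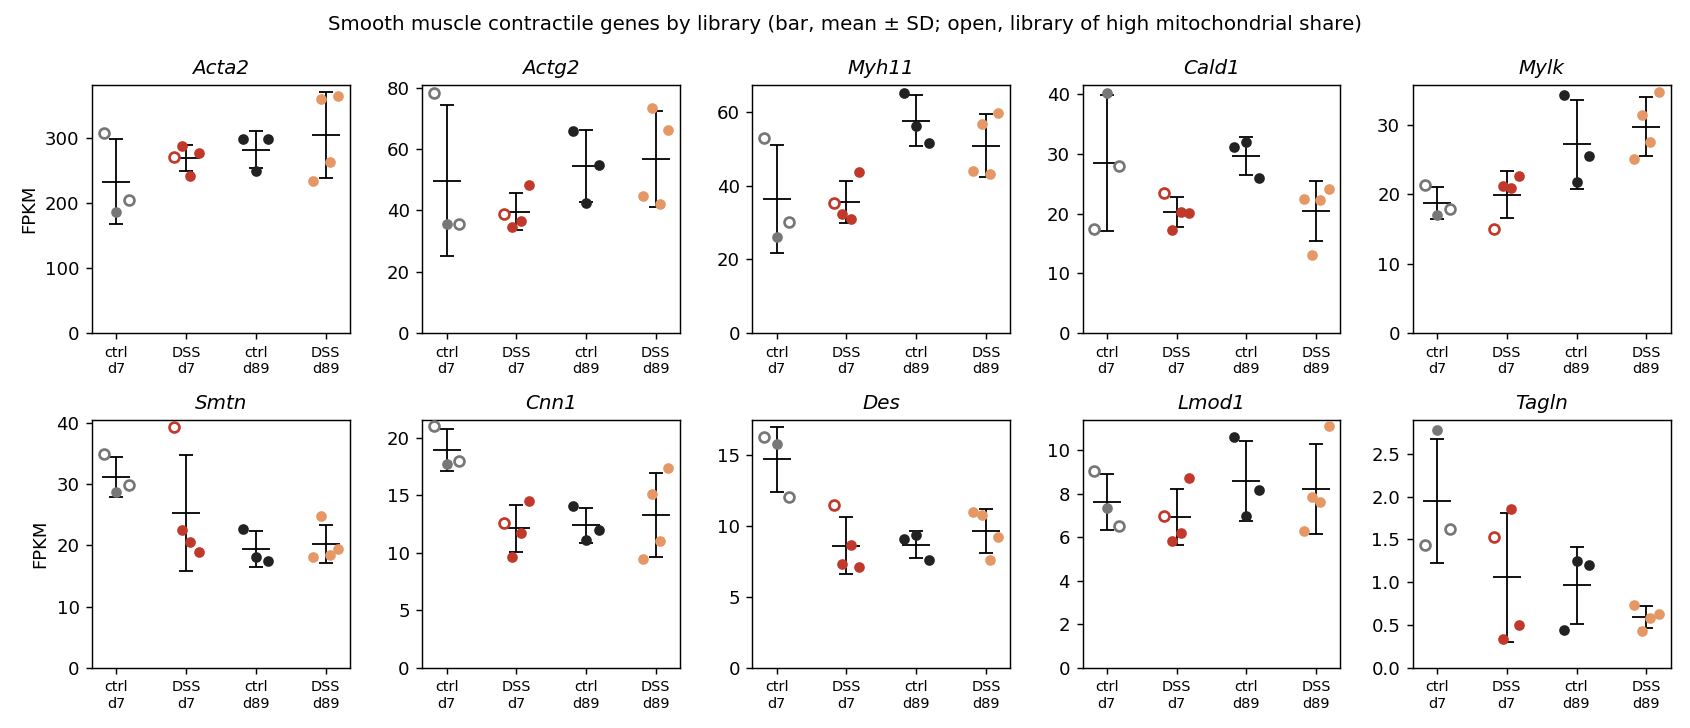
FPKM of each member (vertical axes, from 0) in the 4 groups (horizontal axes), 1 point per library, with mean and SD as bars; open points are the 3 libraries with a mitochondrial share above 9%. Control day 7 stands above DSS day 7 without overlap for Cnn1 and Des only, and Mylk is higher at day 89 than at day 7 in controls and in DSS.

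Promoter sequences were available for 7 of the 10 members (GRCm38.p6, 250 bases before to 50 bases after a start annotated by RefSeq). Such a start can lie inside the span that GENCODE M21 gives the gene, as for Mylk (window chr16:34784700-34784999). The CArG box, searched with no departure from its consensus, was in none of the 8 member windows and in 1.63% of all 32851 windows; the consensus reads the same on both strands, so each position was searched once. Boxes with 1 departure from it were found in the windows of Acta2, Lmod1 and Cald1, that is in 3 of 8, against 21.1% of all windows. Such a match is a description of the letters and not a shown site, and nothing follows from the lack of one, since boxes also lie outside these windows. The windows of Acta2 and Lmod1, which hold 2 such boxes each, are shown beside those of Des and Cnn1. The libraries of Des and Cnn1 did not overlap between DSS and control at day 7, though neither passed the test. A link between boxes and levels was not tested. Capitals mark a box with 1 departure, and sequences run 5' to 3' on the gene's strand. They cover chr19:34255324-34255623 (minus strand), chr1:135324563-135324862 (plus), chr1:75360042-75360341 (plus) and chr9:22099003-22099302 (plus).
Acta2: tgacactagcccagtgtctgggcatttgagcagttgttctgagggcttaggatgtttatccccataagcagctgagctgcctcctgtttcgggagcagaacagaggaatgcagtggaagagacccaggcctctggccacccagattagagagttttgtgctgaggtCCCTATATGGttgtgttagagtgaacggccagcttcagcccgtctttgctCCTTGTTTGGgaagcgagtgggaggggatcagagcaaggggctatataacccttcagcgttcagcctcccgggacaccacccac
Lmod1: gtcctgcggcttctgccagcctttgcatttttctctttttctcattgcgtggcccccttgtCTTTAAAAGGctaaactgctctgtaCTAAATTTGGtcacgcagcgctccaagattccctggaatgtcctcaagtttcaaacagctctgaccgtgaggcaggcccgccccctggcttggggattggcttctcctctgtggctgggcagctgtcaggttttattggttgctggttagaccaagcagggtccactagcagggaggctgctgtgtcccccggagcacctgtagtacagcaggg
Des: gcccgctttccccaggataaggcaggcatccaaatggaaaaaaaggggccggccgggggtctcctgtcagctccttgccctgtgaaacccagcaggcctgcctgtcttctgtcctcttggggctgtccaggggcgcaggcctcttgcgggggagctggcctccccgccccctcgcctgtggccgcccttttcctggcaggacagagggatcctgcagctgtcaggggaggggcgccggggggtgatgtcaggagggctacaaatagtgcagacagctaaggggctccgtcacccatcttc
Cnn1: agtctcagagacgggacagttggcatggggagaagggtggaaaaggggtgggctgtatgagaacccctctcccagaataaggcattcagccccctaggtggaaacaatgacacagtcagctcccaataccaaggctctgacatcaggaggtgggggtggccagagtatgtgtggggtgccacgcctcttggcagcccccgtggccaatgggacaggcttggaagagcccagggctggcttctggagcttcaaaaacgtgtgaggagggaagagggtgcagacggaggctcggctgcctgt
In Acta2 the boxes CCCTATATGG and CCTTGTTTGG begin at −84 and −34 from the annotated start, and in Lmod1 CTTTAAAAGG and CTAAATTTGG begin at −189 and −164. The windows of Des and Cnn1 hold none.

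At day 7, the comparison of DSS with control ovaries at the end of the model, Des and Cnn1 stood lowest relative to controls, and no member passed the test (limma, Benjamini-Hochberg adjusted p under 0.05 over all genes). Background for this comparison was low, with 0.0333% of tested genes called. Des (chr1:75360329-75368579, plus strand, GRCm38) was at 16.2, 15.8 and 12.1 FPKM in control replicates 10, 51 and 53 and at 11.4, 7.30, 8.63 and 7.11 FPKM in DSS replicates 75, 80, 81 and 82. Every DSS library lay below every control, and DSS replicate 75 came closest. The log2 fold change of Des was −0.72 (SE 0.18, adjusted p = 0.106), on the log2(FPKM + 1) scale used throughout. Cnn1 (chr9:22099216-22109630, plus strand) was at 21, 17.7 and 18 FPKM in the controls and at 12.6, 9.59, 11.8 and 14.5 FPKM in DSS, in the same order of replicates. Again the groups did not overlap, and the log2 fold change of Cnn1 was −0.61 (SE 0.19, adjusted p = 0.163). Des and Cnn1 were the 2 members of 10 with an unadjusted p under 0.05, against 16% of all tested genes. They were also the 2 members with DSS wholly below control, against 5.87% of tested genes. Leaving out DSS replicate 75 brought Des (log2 fold change −0.85, adjusted p = 0.0132) and Smtn (−0.57, adjusted p = 0.0413) past the threshold, where 1221 of 18006 genes were then called. Replicate 75 was the only DSS day 7 library of high mitochondrial share (14.2%), while control replicates 10 (9.96%) and 53 (12.2%) stayed in. In that setting DSS and a low mitochondrial share cannot be told apart for those libraries. With limma's sample weights 6 members were called, and 7133 of all genes. Those weights rested the day 7 control mean mostly on replicate 53 (weight 5.40), against 0.432 for replicate 10 and 0.280 for replicate 51. Among the day 89 controls R126 had 5.21, against 0.644 for R123 and 0.653 for R124.

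For the motor and its actins the DSS and control libraries overlapped at day 7. Whether the DSS effect on these members differed from that on Des and Cnn1 was not tested. Acta2 averaged 269 ± 19.4 FPKM (SD, n = 4) after DSS, against 232.5 ± 65.6 for the controls (n = 3), with a log2 fold change of 0.24 and a 95% interval from −0.21 to 0.69. Myh11 averaged 35.5 ± 5.71 against 36.4 ± 14.6 FPKM, with an interval from −0.45 to 0.49. Mylk, with 20 ± 3.38 against 18.7 ± 2.33 FPKM, had an interval from −0.31 to 0.46. For each of these 3 genes the DSS libraries lay within or across the range of the controls. Control replicate 10 held the highest Acta2 and Myh11 of its group (307 and 53 FPKM), and also the highest Actg2 (78.2 FPKM against 35.4 in each of the other 2 controls). Without that library the log2 fold change of Actg2 went from −0.23 to 0.15. With all libraries the 95% interval of Actg2 ran from −0.83 to 0.37, which includes the values of Des and Cnn1. Lmod1 averaged 6.94 ± 1.29 FPKM in DSS and 7.62 ± 1.29 in controls.

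Smtn, Cald1 and Tagln had negative differences at day 7 with overlapping libraries. Smtn averaged 25.3 ± 9.47 FPKM in DSS and 31.2 ± 3.30 in controls, and DSS replicate 75 stood highest of all libraries at 39.4 FPKM. Cald1 averaged 20.3 ± 2.50 against 28.5 ± 11.4 FPKM, and its controls ran from 17.4 in replicate 10 to 40.2 in replicate 51. Tagln averaged 1.06 ± 0.753 against 1.95 ± 0.723 FPKM. In all, 7 members were below 0 (48.9% of all genes were) and 3 above, with a median log2 fold change of −0.29 for the members and 0.00 for all genes tested.

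**Figure D2:**
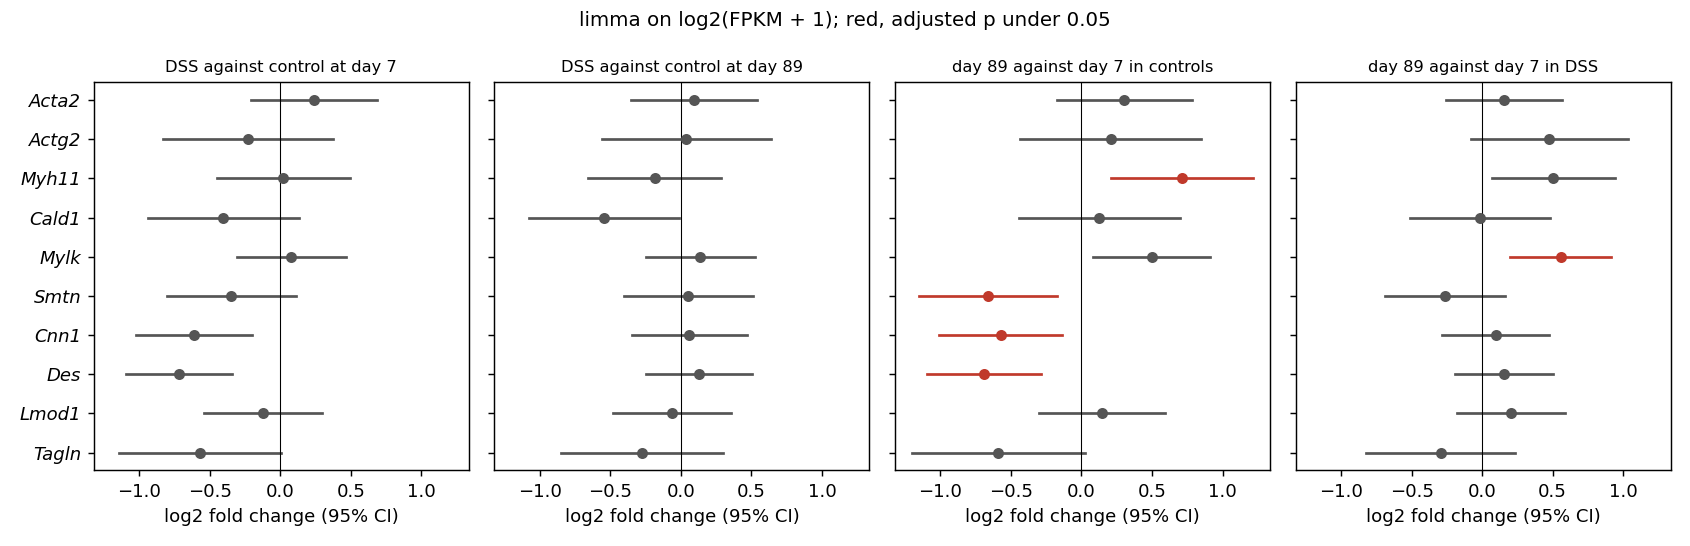
log2 fold change of each member (horizontal axes, limma on log2(FPKM + 1)) with its 95% interval, in 4 comparisons; the first-named group is to the right of 0 where higher. Red marks the 5 calls: Myh11, Smtn, Cnn1 and Des with time in controls, and Mylk with time in DSS.

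Within the libraries of high mitochondrial share (1 DSS, 2 controls) and within the others (3 DSS, 1 control), the day 7 difference of Cnn1 was −0.59 and −0.55 and that of Des −0.27 and −0.96 (log2). Smtn differed by 0.28 and −0.46 and Cald1 by 0.08 and −1.03, so that these 2 had opposite signs in the strata. Myh11 (−0.18 and 0.43), Mylk (−0.36 and 0.33) and Actg2 (−0.43 and 0.15) also changed sign, and Tagln differed by 0.0004 and −1.08. In each stratum 1 of the arms was a single library. Smtn followed the mitochondrial share most closely, with a Pearson r of 0.825 over the 14 libraries. This is a description, since both values of a library come from the same reads. The corresponding r was 0.435 for Des and 0.368 for Cnn1. Without the 3 libraries of high share the day 7 difference was −0.96 for Des (adjusted p = 0.0364, called), −0.55 for Cnn1 (0.294) and −0.46 for Smtn (0.196). With a term for those libraries it was −0.63 for Des (0.116), −0.57 for Cnn1 (0.185) and −0.11 for Smtn (0.780), none called.

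**Figure D3:**
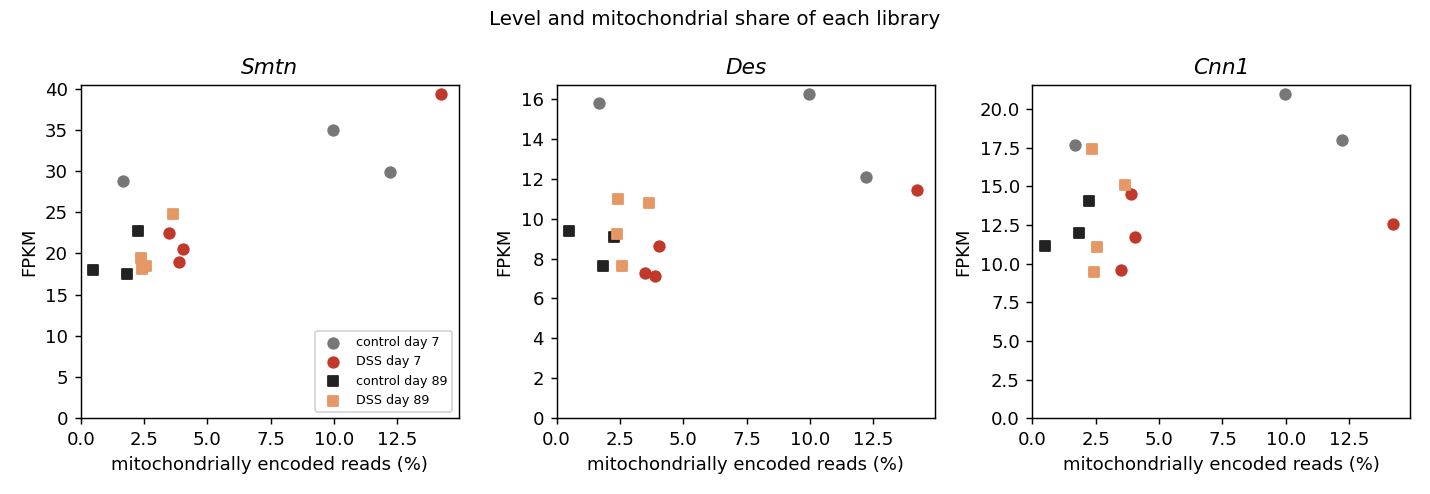
FPKM of Smtn, Des and Cnn1 (vertical axes, from 0) against the percentage of reads from mitochondrially encoded genes (horizontal axes), 1 point per library, circles for day 7 and squares for day 89. Smtn is highest, at 39.4 FPKM, in the library of the highest share (14.2%), while the control of 1.66% holds Des at 15.8 and Cnn1 at 17.7 FPKM, within the range of the controls above 9% (Des 12.1 and 16.2 FPKM) or just below it (Cnn1 18 and 21 FPKM).

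At day 7, 16% of all tested genes had an unadjusted p under 0.05, the share to set beside each such count below. Other genes of the contractile apparatus, from a list of 24 that were all tested, gave 0 calls at day 7 (5 with an unadjusted p under 0.05, median log2 fold change −0.08). Those with the smallest p were lower in DSS: Myl6, the essential light chain of myosin, at 194 ± 50.8 against 302 ± 33.2 FPKM, and Tpm2, a tropomyosin of the thin filament, at 51.7 ± 9.63 against 82.2 ± 17.9 FPKM. Of 23 tested genes for calcium handling and contraction signalling 0 were called. Ppp1r14a, which inhibits myosin phosphatase, stood at 30.3 ± 9.47 against 52.8 ± 18 FPKM (log2 fold change −0.77, adjusted p = 0.164). Of 14 tested regulators of smooth muscle transcription 0 were called. Heyl, a Notch target, had the smallest p, at 20.7 ± 4.18 in DSS against 13.3 ± 3.48 FPKM in controls. Beside Des and Cnn1, 6 of 12 pericyte markers had an unadjusted p under 0.05 and 0 were called, with 5 of the 12 above 0 and 7 below (median log2 fold change −0.16). The summed pericyte level was 109 to 143 FPKM in DSS and 127 to 184 in controls. Among the 4 with the smallest p, which were all below 0, Rgs5, a pericyte signalling regulator, stood at 14.1 ± 1.08 against 28.2 ± 12.4 FPKM, and Higd1b at 1.92 ± 0.537 against 4.36 ± 0.572 FPKM. Of those above 0, Abcc9 stood at 4.21 ± 0.481 against 3.11 ± 0.395 FPKM and Kcnj8 at 4.26 ± 0.674 against 3.17 ± 0.447 FPKM. For both, every DSS library lay above every control. Rgs5 and Higd1b went the other way, with every DSS library below every control, as for 5.87% of tested genes. The share of all genes lying wholly above controls is not given here. Of 11 luteal and theca markers 0 were called and 7 had an unadjusted p under 0.05, with a median log2 fold change of −0.92. Star, which carries cholesterol into mitochondria for steroid synthesis, averaged 39.2 ± 3.96 FPKM after DSS and 158 ± 66.6 in controls (log2 fold change −1.91, adjusted p = 0.0885). Their summed level, 2096 to 3174 FPKM in DSS and 2592 to 3672 in controls, was mostly Hsd3b1, an enzyme of steroid synthesis, at 1859 ± 214 and 1841 ± 505 FPKM. The part of these cell types in the results was not tested, and in bulk tissue fewer cells of a type and less RNA per cell cannot be told apart.

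Striated muscle, which also expresses desmin, was examined by its own markers. Of these 21 Tnnc2, Myod1 and Myog were at 0 in all 14 libraries, and 8 were tested. The sum of all 21 was 12.5 to 32.6 FPKM in DSS and 16.2 to 20.3 in controls at day 7, and 5.87 to 10.5 in controls and 6.07 to 13.1 in DSS at day 89. Cav3, the muscle caveolin, averaged 0.772 ± 0.305 FPKM after DSS at day 7, against 2.62 ± 0.771 in controls (log2 fold change −1.03, adjusted p = 0.0777). Tnni2, a troponin of fast muscle, differed the other way, at 2.55 ± 1.23 against 0.979 ± 0.347 FPKM (0.78, 0.185), as did Neb, the thin filament protein nebulin (0.50, 0.204). In all, 4 of the 8 were above 0 and 4 below. Among 14 markers of oviduct and uterus Hoxa11 was at 0 in every library, and the oviduct secretory gene Ovgp1 ranged from 0.215 to 10.3 FPKM. The sum of these 14, of which the broadly expressed tubulin Tubb4b held the most (54.4 to 107 FPKM), was 98.2 to 141 FPKM in DSS and 91.2 to 104 in controls at day 7. Of the 9 tested, 7 were below 0, 0 were called and 4 had an unadjusted p under 0.05, against 16% of all tested genes. Dynlrb2, Wfdc2 and Krt7 were among these 4, with negative log2 fold changes (−0.79, −0.71 and −0.62). Tubb4b stood higher in DSS, at 95.5 ± 11.8 against 63.9 ± 8.23 FPKM.

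After the rest, at day 89, the members differed little between DSS and control ovaries. None was called, against 0.00555% of tested genes, and their median log2 fold change was 0.05, against 0.00 for all genes. Cald1 (chr6:34598500-34775473, plus strand) had the lowest value. It stood at 31.1, 32 and 26 FPKM in control replicates R123, R124 and R126 and at 22.4, 13.1, 22.3 and 24.2 FPKM in DSS replicates R29, R38, R78 and R89. The groups did not overlap, and R38 lay far below the other DSS libraries. The log2 fold change of Cald1 was −0.54 (SE 0.25, adjusted p = 0.924) and −0.35 without R38. Cald1 was the 1 member with an unadjusted p under 0.05, against 4.58% of all genes, and the 1 member wholly below control, against 4.25%.

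For Des and Cnn1 the DSS and control libraries overlapped at day 89. The 95% intervals of the log2 fold change ran from −0.25 to 0.51 for Des and from −0.35 to 0.47 for Cnn1. Des averaged 9.65 ± 1.57 FPKM (SD, n = 4) after DSS, against 8.69 ± 0.937 for the controls (n = 3), and Cnn1 13.3 ± 3.64 against 12.4 ± 1.52 FPKM. The test of the difference between the day 89 and day 7 effects gave log2 values of 0.85 for Des (SE 0.25, adjusted p = 0.487) and 0.67 for Cnn1 (SE 0.27, adjusted p = 0.569). They were the 2 members with an unadjusted p under 0.05 in that test, against 8.45% of all genes. No gene at all was called (0% of 18006), so a change of the DSS effect with time was not shown. The other 8 members had 95% intervals of this difference that included 0.

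The abundant members overlapped between the day 89 groups. Acta2 was at 298, 248 and 298 FPKM in controls and 234, 359, 263 and 363 FPKM in DSS. Myh11 was at 65.2, 56.2 and 51.7 FPKM in controls and 44, 56.6, 43.1 and 59.8 FPKM in DSS. DSS replicates R38 and R89 were high and R29 and R78 low for Acta2, Myh11, Actg2, Mylk and Cnn1 alike. For Lmod1 R89 was highest, at 11.1 FPKM, while R38 (7.87) lay close to R78 (7.61). The 95% intervals of the log2 fold change ran from −0.35 to 0.54 for Acta2, from −0.66 to 0.28 for Myh11 and from −0.25 to 0.52 for Mylk. For the other contractile genes 0 of 24 were called, for signalling 0 of 23 and for transcriptional regulators 0 of 14. Pericyte markers summed to 139 to 152 FPKM in DSS and 165 to 170 in controls.

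From day 7 to day 89 in control ovaries Myh11 rose, Des, Smtn and Cnn1 fell and the other 6 members did not pass the test. That is 4 of 10 called, in a comparison where 31.8% of all tested genes were called (16.1% higher, 15.7% lower). The members' share is thus near the background. Myh11 (chr16:14194535-14291372, minus strand) was at 53, 26 and 30.2 FPKM in day 7 replicates 10, 51 and 53, against 51.7 to 65.2 at day 89. Replicate 10 alone reached the day 89 range, and the log2 fold change was 0.71 (SE 0.23, adjusted p = 0.0335). Des averaged 14.7 ± 2.28 FPKM at day 7 and 8.69 ± 0.937 at day 89, with log2 fold change −0.69 (SE 0.19, adjusted p = 0.0141). Smtn (chr11:3517523-3540612, minus strand) was at 35, 28.8 and 29.8 FPKM at day 7 and at 22.7, 18 and 17.5 FPKM at day 89, with log2 fold change −0.66 (SE 0.23, adjusted p = 0.0405). Cnn1 averaged 18.9 ± 1.82 and 12.4 ± 1.52 FPKM, with log2 fold change −0.57 (SE 0.20, adjusted p = 0.0454). Des, Smtn, Cnn1 and Tagln lay wholly lower at day 89, against 22.2% of tested genes, and Mylk wholly higher, against 22.8%.

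These calls in controls were near the threshold. That of Des ended without control day 89 replicate R126 (adjusted p = 0.0587). That of Myh11 ended without day 7 replicate 51 (adjusted p = 0.114) or 53 (0.116), or day 89 replicate R123 (0.108), R124 (0.0673) or R126 (0.0532). The Cnn1 call ended without any 1 of the 6 controls (adjusted p from 0.0547 for R123 to 0.129 for replicate 10, with 0.0572 for 51, 0.0856 for 53, 0.128 for R124 and 0.110 for R126), and without DSS day 7 replicate 81 (0.0590) or DSS day 89 replicate R78 (0.0513). Smtn lost its call without control day 7 replicate 10 (0.118), 51 (0.0503) or 53 (0.0815), without control day 89 replicate R124 (0.104) or R126 (0.119), and without DSS day 7 replicate 80 (0.0508) or DSS day 89 replicate R29 (0.0502), R78 (0.0507) or R89 (0.0503). With each library's trend with gene length removed Myh11 differed by 0.45 (adjusted p = 0.200) and Cnn1 by −0.44 (0.108), and neither was called. The Cnn1 call also ended with own read totals (0.0983) and with voom (0.0975), that of Myh11 with only the groups compared (0.0960), and with no filter on low values those of Cnn1 (0.0828), Smtn (0.0794) and Myh11 (0.0675). Without the 3 libraries of high mitochondrial share Cnn1 (0.297) and Smtn (0.0928) were not called. With a term for the 3 libraries of high mitochondrial share Des differed by −0.55 (0.1004), Smtn by −0.29 (0.368) and Cnn1 by −0.50 (0.179), none called.

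In DSS ovaries Mylk alone was called between the days, in a comparison where 21.4% of genes were called (10.7% higher). Mylk (chr16:34745210-35002420, plus strand) was at 15, 21.3, 20.8 and 22.7 FPKM in day 7 replicates 75, 80, 81 and 82 and at 25.1, 31.5, 27.5 and 34.8 FPKM in day 89 replicates R29, R38, R78 and R89. The groups did not overlap, as for 12.2% of tested genes in that direction, and the log2 fold change was 0.56 (SE 0.17, adjusted p = 0.0310). The call ended without DSS day 7 replicate 75 (0.43, adjusted p = 0.0806) or 81 (0.58, 0.0557), without DSS day 89 replicate R78 (0.59, 0.0583) or R89 (0.48, 0.0845), and with the length trend removed (0.31, 0.234). In controls Mylk averaged 18.7 ± 2.33 FPKM at day 7 and 27.2 ± 6.39 at day 89, with log2 fold change 0.50 (SE 0.19, adjusted p = 0.0634). Myh11 in DSS stood at 35.5 ± 5.71 and 50.9 ± 8.58 FPKM (log2 fold change 0.50, SE 0.20, adjusted p = 0.0901). Des (8.62 ± 2.0 and 9.65 ± 1.57 FPKM) and Cnn1 (12.1 ± 2.04 and 13.3 ± 3.64 FPKM) showed no call between the days in DSS. The 2 time comparisons share no library, and the test of whether they differ is the one given above for the DSS effects.

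The related lists held calls with time as well, to be read against the 31.8% of all genes called in controls and 21.4% in DSS. For these genes no values are given with the length trend removed or with a term for the libraries of high mitochondrial share. Removing the length trend ended the calls of Myh11 in controls (0.45) and Mylk in DSS (0.31). With the term 3141 of all genes were called in controls, against 5732. Of the 24 other contractile genes 5 rose and 4 fell in controls, and 4 rose and 1 fell in DSS. Actn1, an actin crosslinker, rose in controls from 16.3 ± 2.80 to 46.6 ± 5.51 FPKM (log2 fold change 1.47, SE 0.16). Of 23 signalling genes 6 rose and 1 fell in controls, and 6 rose and 0 fell in DSS. Atp2a2, the calcium pump of the sarcoplasmic reticulum, rose in controls from 31.4 ± 1.83 to 62.3 ± 9.55 FPKM, while Ppp1r14a fell from 52.8 ± 18 to 24.4 ± 2.95 FPKM. Oxtr, the oxytocin receptor, rose in DSS from 10.3 ± 1.46 to 34.5 ± 18.5 FPKM. Of 14 transcriptional regulators 7 rose and 1 fell in controls, and 3 rose and 0 fell in DSS. Notch3, a receptor of vascular smooth muscle, stood at 2.32 ± 0.208 and 11 ± 1.74 FPKM in controls of day 7 and day 89 (log2 fold change 1.84, SE 0.22). The non-muscle myosin heavy chain Myh9 rose in controls from 13.4 ± 3.47 to 56.7 ± 8.03 FPKM, 1 of 2 called among 11 non-muscle isoforms.

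Markers of other cells are given beside the time differences, against the same shares of all genes and again without those settings. In controls the summed level of 12 fibroblast and stroma markers was 265 to 438 FPKM at day 7 and 547 to 1059 at day 89, with 5 of 11 tested genes higher. Luteal and theca markers summed to 2592 to 3672 FPKM at day 7 and 4644 to 5416 at day 89 in controls, and to 2096 to 3174 and 3732 to 6120 in DSS. Of these 11 markers 0 were called in controls, where 2 had an unadjusted p under 0.05, and 6 rose in DSS. Endothelial markers summed to 235 to 287 and 241 to 256 FPKM in controls of day 7 and day 89, and 4 of 13 were higher and 1 lower. Pericyte markers summed to 127 to 184 and 165 to 170 FPKM, with 3 of 12 higher and 4 lower. Striated muscle markers summed to 16.2 to 20.3 FPKM at day 7 and 5.87 to 10.5 at day 89, and 2 of 8 tested were lower. Of 9 tested markers of oviduct and uterus 4 fell in controls (median log2 fold change −0.69), among them Krt7, a keratin, from 3.96 ± 0.638 to 0.58 ± 0.400 FPKM, and 2 fell in DSS. The part of these cell types in the time differences was not tested.

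Across the 14 libraries the members did not vary as 1 set. Pearson's r of log2(FPKM + 1) had a median of 0.09 over the 45 pairs of members, with 20 pairs below 0. This is a description, since the values within a library share its depth and preparation. Acta2, Actg2, Myh11, Mylk and Lmod1 varied together, with the highest r for Actg2 and Myh11 (0.85) and an r of 0.79 for Myh11 and Mylk and for Actg2 and Lmod1. Des and Smtn formed another pair (0.73), and Tagln ran against Mylk (−0.71) and Acta2 (−0.67). Cald1 ran against Acta2 (−0.61). With each group's mean subtracted, which leaves the differences between libraries of 1 group, 4 pairs exceeded 0.8: Myh11 with Actg2 (0.92), Acta2 with Actg2 (0.89), Cnn1 with Lmod1 (0.88) and Acta2 with Myh11 (0.84). Cnn1 then joined the actins and Myh11 (0.71 with Acta2 and 0.76 with Actg2), and Des kept to Smtn (0.68) with an r of 0.06 with Acta2.

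**Figure D4:**
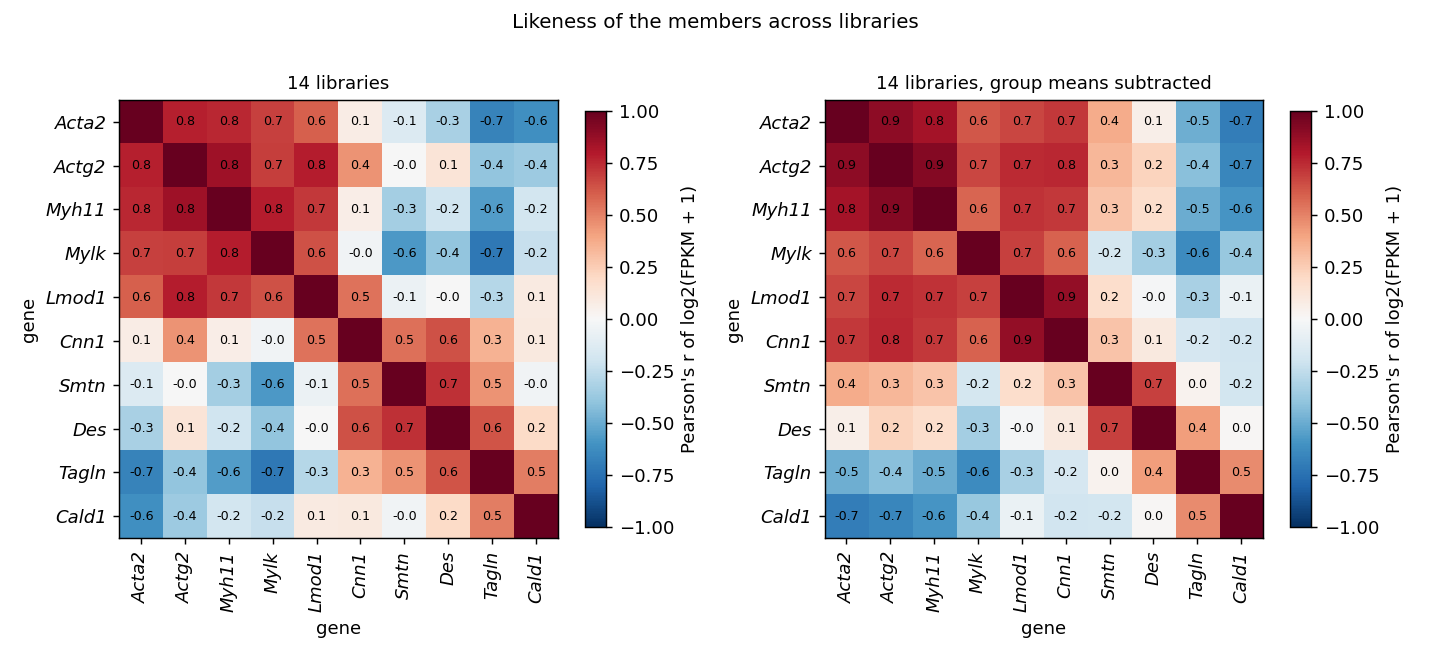
Pearson's r of log2(FPKM + 1) between members (genes on both axes) over the 14 libraries, as measured (left) and with group means subtracted (right), from −1 in blue to 1 in red. Acta2, Actg2, Myh11, Mylk and Lmod1 form a red block in both, which Cnn1 joins on the right, while Cald1 and Tagln run against Acta2 in both.

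Among 8520 other genes with a mean of at least 5 FPKM, the ones most like the mean of the standardised members over the 14 libraries were Nacc2 (r = 0.85), Qsox1 (0.81) and Mapk8ip1 (0.80). With group means subtracted they were Vsig10 (0.89), Tpi1 (0.87), Angptl4 (0.87) and Myl9 (0.87). Myl9 encodes the regulatory light chain that Mylk phosphorylates, and Cryab, a small heat shock protein of muscle, was the other gene of the contractile list among the 10 highest (0.82). Qsox1, a sulfhydryl oxidase, was among the 10 highest on both scales.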

How the data were processed

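Ovary RNA-seq of 14 libraries was used, as 1 table of FPKM per gene that the authors deposited. Alignment was with HISAT2 2.0.5 to GRCm38 per the submitters' processing notes; of the counter, the annotation release and the use of strand nothing is given in the sources used. The deposited FPKM, multiplied by the deposited gene length, gave whole reads (within 0.01 of a read unit, values up to 300 units) for 100% of values, hence the depth of 15256018 to 18505144 reads per library. Levels were tested as log2(FPKM + 1) with limma 3.58.1 (R 4.3.3), with 1 mean per group over all 14 libraries, for genes with at least 0.5 FPKM in 3 libraries, and p-values were adjusted by Benjamini-Hochberg over 18006 genes with a threshold of 0.05. The test was checked on simulated data. The members and all lists were chosen with earlier results of these data known. All members were named, and from each list up to 4 genes with the smallest p. Names were also taken from the 10 genes most like the members with a mean of at least 5 FPKM. Rom1, Abca4, Ovgp1, Tubb4b, Abcc9 and Kcnj8 were named after their values were seen. Positions came from GENCODE M21 by gene ID, since the deposited positions differed for all 10 members. The search for boxes with 1 departure was added after the exact search found none. Alternatives were the pseudocount, the filter, the scaling, voom on recovered reads, only the groups compared, sample weights, gene length, the 3 libraries of high mitochondrial share, and leaving out each library in turn.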

Additional observations from a re-analysis of the deposited data

Results flagged for a closer look

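Cald1 in DSS day 89 replicate R38, at 13.1 FPKM, lay far below the other 3 libraries of its group, which were at 22.3 to 24.2 FPKM. The gap took 0.832 of the group's range, against a critical value of 0.829. Of 20 groups of 4 libraries examined, 2 for each member, 1 stood out in this way, and chance alone gives about 1 in 20.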

How the results depend on the processing

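No paired analysis was possible because no replicate number recurs between groups. The cause of the differences below was not tested. At day 7 the count of members called was 0, and it was 6 with sample weights, 1 without the 3 libraries of high mitochondrial share (Des) and 0 to 2 with 1 library left out; over all genes 6 were called, against 2 with a pseudocount of 0.1, 1 with own read totals, 0 with voom, 0 with only the groups compared, 7133 with sample weights, 915 without those 3 libraries, 20 with a term for them, 11 with the length trend removed and 0 to 1221 with 1 library left out. At day 89 the count of members called was 0 in every setting; over all genes 1 was called, against 5 with no filter, 92 with sample weights, 0 with a pseudocount of 0.1, a filter of 1 FPKM, voom, only the groups compared or without those 3 libraries, and 0 to 2 with 1 library left out. For time in controls 4 members were called, against 1 with no filter, 3 with own read totals, voom or only the groups compared, 7 with sample weights, 2 without those 3 libraries, 1 with a term for them, 2 with the length trend removed and 0 to 5 with 1 library left out; over all genes 5732 were called, against 11786 with sample weights, 3231 without those libraries, 3141 with the term and 3695 to 6463 with 1 library left out. For time in DSS 1 member was called, against 0 with no filter, without those libraries, with the term or with the length trend removed, and 0 to 2 with 1 library left out; over all genes 3860 were called, against 7956 with sample weights and 2034 to 4930 with 1 library left out. For the difference of the DSS effects 0 members were called, 2 with sample weights; over all genes 0 were called, against 2 with no filter, 4226 with sample weights, 3 without those libraries and 0 to 41 with 1 library left out. The members whose sign turned were not called in the setting reported. At day 7 Actg2 went to 0.0601 with sample weights and 0.15 without those libraries, Lmod1 to 0.0132 with sample weights and Myh11 to −0.0003 with the length trend removed. At day 89 Acta2 went to −0.10, Cnn1 to −0.0556 and Actg2 to −0.19 with sample weights, and Actg2 to −0.0270 with the length trend removed. With time in controls Cald1 went to −0.0273 with sample weights, −0.43 without those libraries, −0.0393 with the term and −0.26 with the length trend removed. With time in DSS Cald1 went to 0.0266 with own read totals, 0.0262 with voom, 0.19 with sample weights and 0.0525 without those libraries, and Cnn1 to −0.0134 with sample weights. With 1 library left out the log2 fold change at day 7 ran from −0.42 to 0.15 for Actg2 and −0.18 to 0.32 for Myh11. At day 89 it ran from −0.13 to 0.19 for Actg2, −0.0746 to 0.20 for Cnn1, −0.20 to 0.0836 for Lmod1, −0.0021 to 0.31 for Mylk and −0.0456 to 0.17 for Smtn. With time it ran from −0.18 to 0.40 for Cald1 and −0.0011 to 0.27 for Lmod1 in controls, and from −0.10 to 0.18 for Cald1 and −0.0369 to 0.23 for Cnn1 in DSS. Over all settings Des at day 7 stayed between −0.96 and −0.62 and Cnn1 between −0.70 and −0.51. Depth limited Tagln most, at 12 to 102 reads per library.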
